A study of Gossypium barbadense and Gossypium hirsutum with 8 samples.

Results

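A set of 91 genes of the 59006 listed was abundant in the fiber of upland cotton, Gossypium hirsutum, at 5 days post anthesis (DPA). On the rescaled level defined below, these genes were much lower in the other 5 DPA fiber sample. At every later G. hirsutum stage they were at least 2 times lower on that level. They are called burst genes here. The genes were chosen by measured values. A burst gene stood at 20 RPKM or more in G. hirsutum at 5 DPA, at a rescaled level at least 8 times that of G. barbadense at 5 DPA, and at least 2 times that of each later G. hirsutum library. RPKM, the unit the authors deposited, divides the reads of a gene by its length and by the size of the library. The rescaled level is the RPKM divided by the library's summed RPKM and multiplied by 300000. The difference between the species at 5 DPA and the fall within G. hirsutum are therefore given as descriptions, with no test.

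RNA was sequenced from fibers of 2 cultivated cotton species, G. hirsutum and G. barbadense (the extra-long-staple cotton), each at 5, 10, 15 and 20 DPA, with 1 library per species and stage and 8 in all. Ages follow the labelled developmental stage, and the sample titles of the oldest stage carry 25 instead of 20. The labels give fiber as the tissue and name no cultivar, growth condition or number of plants. The series addresses how expression in developing fiber differs between these species.

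A cotton fiber is a single outgrown epidermal cell of the seed coat. It starts around flowering, then elongates by expanding its primary wall, and later deposits a thick cellulose wall inside it. Both species are tetraploids with an A and a D subgenome, so most genes occur as a closely similar A copy and D copy. An identifier such as Gh_A08G0316 places a gene on chromosome A08 and gives its number in the order along that chromosome. Sca identifiers lie on unplaced scaffolds. The identifiers have the form of G. hirsutum genes, and the levels of both species are listed under them. Whether reads of G. barbadense match these genes as well as reads of G. hirsutum was not tested. The files do not pair identifiers with gene names. The 74561-gene reference table used here is of G. barbadense, and 0 of the listed identifiers occurred in it. The functions of the burst genes are therefore not stated. For the same reason the label fiber could not be checked against marker genes.

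The library that defined the set was the one with the lowest summed RPKM. It summed to 138198 RPKM, against 252850 to 326872 RPKM in the later G. hirsutum libraries and 258680 to 503585 RPKM in the G. barbadense libraries. The steps between low values put the library sizes behind the RPKM at 5, 10 and 15 DPA between 0.975 and 1.01 of the G. barbadense 5 DPA library. Among these libraries the summed RPKM did not follow library size. For 20 DPA the same steps gave 1.16 in G. hirsutum and 1.12 in G. barbadense. Only sizes close to that of the G. barbadense 5 DPA library were searched, and the 20 DPA read numbers came out almost all even. The sizes of the 20 DPA libraries are therefore not settled and may be much smaller. The value of 1 read could be read for 46 burst genes, all of whose values of up to 60 reads lay within 0.1 of a whole number. The largest step that suited the values was taken. The RPKM of 1 read is therefore an upper estimate, and the numbers of reads are lower estimates. In these genes 1 read was worth a median of 0.357 RPKM, with a range of 0.142 to 1.44 RPKM, against a median of 0.193 RPKM over the 14457 genes of all kinds for which it could be read. The 46 genes had an estimated 27 to 3607 reads in G. hirsutum at 5 DPA, with a median of 80.5, and a median of 7 reads in G. barbadense at 5 DPA. Of the 46, 32 had an estimate of under 10 reads in that G. barbadense library, so the size of their ratio is known only roughly.

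Of all genes, 1117 reached 20 RPKM in G. hirsutum at 5 DPA, and 137 of these (12.3%) were at least 8-fold above G. barbadense at that stage on the rescaled level. The further requirement of a fall after 5 DPA left the 91 burst genes. The same rule with the species exchanged chose 131 genes in G. barbadense. The rescaling enters the choice: it raises the 5 DPA ratio of G. hirsutum over G. barbadense 1.87-fold. With RPKM as deposited in place of the rescaled level, 44 genes met the rule, all of them among the 91. With median-of-ratios factors 89 met it, 84 of them among the 91.

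At 5 DPA the burst genes stood between 20.1 and 740 RPKM in G. hirsutum, with a median of 37.5 RPKM, and between 0 and 85.3 RPKM in G. barbadense, with a median of 3.91 RPKM. The ratio of the rescaled levels had a median of 19.5 over the 84 genes above 0 in G. barbadense and reached 191. As deposited, the RPKM ratio ran from 4.47 to 102 with a median of 10.4. Since the rule sets the rescaled ratio at 8 or more, the direction of both ratios was fixed by the choice of genes. The remaining 7 were listed at 0 in G. barbadense at 5 DPA. Levels ranged widely: 35 genes stood under 30 RPKM and 13 at 100 RPKM or more, and 8 burst genes were among the 20 most abundant genes of that library. With no replicate of any library, these differences have no replicate check. In bulk fiber samples, fewer cells of a type and less RNA per cell cannot be told apart.

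Values at the edges of the rule were as follows. The smallest species ratios inside it were 8.37 (Gh_D08G0811) and 8.41 (Gh_D02G0646), and the largest outside it, among genes that met the other criteria, were 7.81 (Gh_D02G1736) and 7.68 (Gh_D03G0405). The lowest levels inside were 20.1 RPKM for both Gh_A10G0388 and Gh_D02G0646. The highest levels outside were 19.8 RPKM for Gh_A03G0998 and 19.8 RPKM for Gh_D10G0119.

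Together the burst genes took 5.55% of the summed RPKM in G. hirsutum at 5 DPA, against 0.24% in G. barbadense at 5 DPA. At 10 DPA they took 0.535% in G. hirsutum and 0.590% in G. barbadense. At 15 DPA they took 0.721% in G. hirsutum and 0.817% in G. barbadense. By 20 DPA the G. hirsutum share was 0.256% and the G. barbadense share 0.149%. Without the 10 burst genes highest at 5 DPA the share at that stage was 2.40% in G. hirsutum and 0.133% in G. barbadense. Leaving out these 10 turned the order of the species at 10 DPA, with 0.316% in G. hirsutum and 0.193% in G. barbadense, and at 15 DPA, with 0.324% in G. hirsutum and 0.198% in G. barbadense. The 10 include Gh_A11G2616 and Gh_D11G2930, whose later values are given below. The heat map of rescaled levels shows that this decline was not uniform, since some genes were near 0 in every other library while others were high in a later G. barbadense library.

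**Figure D1:**
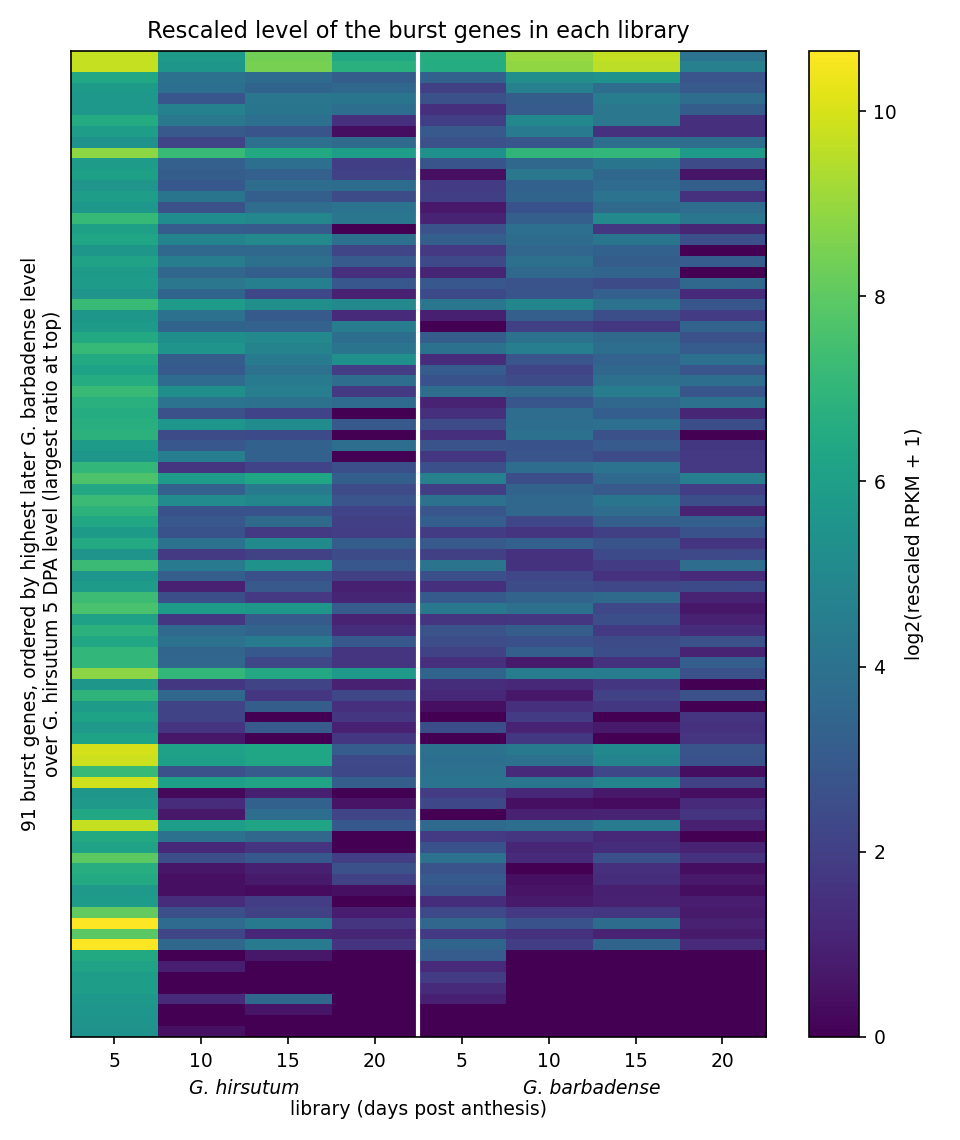
Rescaled level of the 91 burst genes, as log2(rescaled RPKM + 1), with 1 row per gene and 1 column per library (G. hirsutum on the left, G. barbadense on the right, each by days post anthesis). Rows are ordered by the highest later G. barbadense level over the G. hirsutum 5 DPA level, which falls from 0.971 at the top to 0 at the bottom. The bright first column is what the genes were chosen for.

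The most abundant burst genes were neighbours. Gh_A08G0314, Gh_A08G0315, Gh_A08G0316 and Gh_A08G0317 have consecutive numbers on chromosome A08, and Gh_D08G0412, Gh_D08G0413, Gh_D08G0414 and Gh_D08G0415 on chromosome D08. These 8 genes made up 44.2% of the burst genes' summed RPKM in G. hirsutum at 5 DPA, and 2.46% of that whole library, against 0.0275% of the G. barbadense 5 DPA library. The genes on either side of both runs were close to 0: Gh_A08G0313, Gh_A08G0318, Gh_D08G0411 and Gh_D08G0416 stood at 0 to 0.43 RPKM in all 8 libraries.

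Gh_A08G0316 was the burst gene with the highest level and ranked 7 among all genes of that library. It stood at 740, 13.3, 15.8 and 2.08 RPKM at 5, 10, 15 and 20 DPA in G. hirsutum fiber, against 9.02, 9.19, 15.9 and 1.07 RPKM in G. barbadense fiber. Gh_D08G0414, its D counterpart by position, stood at 707, 12.1, 17.0 and 2.08 RPKM in G. hirsutum fiber, against 8.42, 4.90, 12.2 and 1.61 RPKM in G. barbadense fiber. In both genes the single high value was that of G. hirsutum at 5 DPA, and the species lay within a few RPKM of each other at 15 and 20 DPA.

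The other genes of the runs kept more of their level after 5 DPA or were less abundant. Gh_A08G0315 stood at 458, 72.7, 64.1 and 7.53 RPKM in G. hirsutum fiber, against 12.6, 31.1, 38.1 and 6.21 RPKM in G. barbadense fiber. Gh_D08G0412 stood at 436, 68.5, 62.6 and 8.28 RPKM in G. hirsutum fiber, against 13.7, 28.4, 33.0 and 3.49 RPKM in G. barbadense fiber. Gh_D08G0413 and Gh_A08G0314 followed the same course, with 428 and 385 RPKM in G. hirsutum at 5 DPA, against 12.0 and 9.77 RPKM in G. barbadense. The last gene of each run was lower. At 5 DPA Gh_A08G0317 had 113 RPKM in G. hirsutum, against 2.19 RPKM in G. barbadense, and Gh_D08G0415 had 127 RPKM, against 3.5 RPKM. The 4 genes at 385 to 458 RPKM thus kept 62.4 to 72.7 RPKM at 10 and 15 DPA in G. hirsutum, whereas Gh_A08G0316 and Gh_D08G0414 were already under 20 RPKM there.

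**Figure D2:**
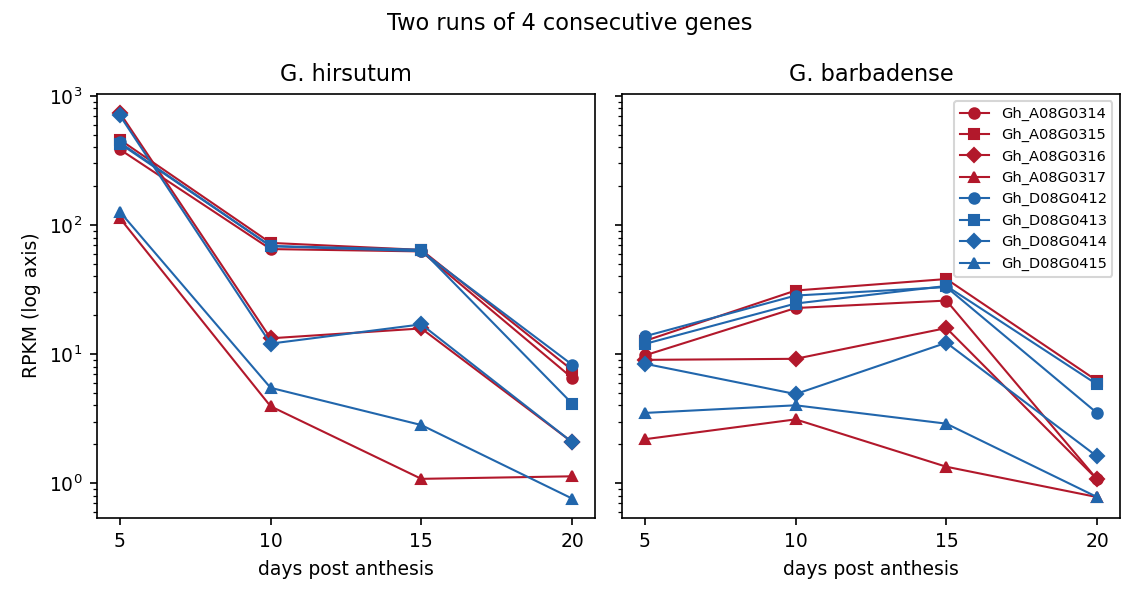
RPKM of the 8 genes of the runs on A08 (red) and D08 (blue) by days post anthesis, on a log axis, in G. hirsutum (left) and G. barbadense (right), with 1 library per point. In G. hirsutum the genes stand at 113 to 740 RPKM at 5 DPA, and in G. barbadense at 2.19 to 13.7 RPKM, where 6 of the 8 lines are highest at 15 DPA.

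Some burst genes paired with a burst gene of the other subgenome by like position and correlation together. How often other genes would pair by the rule given here was not counted. The A chromosomes held 45 burst genes and the D chromosomes 45 (49.5% each, against 46.5% and 49.5% of all listed genes), with 1 on a scaffold. By the rule used, 36 burst genes formed 18 pairs of an A and a D gene on chromosomes of the same number, at like positions and with a Pearson correlation of at least 0.9 across the 8 libraries, with positions within 0.05 of the chromosome's highest gene number. With positions within 0.02, only 10 burst genes were in a pair. Within the 18 pairs the A gene stood at 0.747 to 1.75 times the RPKM of the D gene in G. hirsutum at 5 DPA. The widest gap was that of Gh_A09G0923 and Gh_D09G0953, where the G. hirsutum values were 116 and 66.3 RPKM and those of G. barbadense 13.2 and 12.8 RPKM. The correlations share the 5 DPA peak the genes were chosen for. How the authors treated reads that match both copies is not given in the sources used here, so levels of close copies may not be independent. Gh_A12G1613 and Gh_D12G1754 were listed at the same 23.9 RPKM in G. hirsutum at 5 DPA, and Gh_A01G0523 and Gh_D01G0536 at the same 32.8 RPKM.

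Besides the runs on A08 and D08, 4 groups of directly adjacent burst genes were found, for 16 genes with a neighbour in all. Gh_A11G2471 and Gh_A11G2472 lay side by side, as did Gh_D11G2791 and Gh_D11G2792, which pair with them by position and correlation. In G. hirsutum at 5 DPA these 4 stood at 52.3, 26.6, 61.2 and 22.3 RPKM, against 4.92, 0.32, 2.78 and 1.39 RPKM in G. barbadense. The others were Gh_D03G0420 with Gh_D03G0421 and Gh_D01G0536 with Gh_D01G0537. Chromosomes A08 and D08 each held 8 burst genes (8.79%), with 3.78% and 4.01% of all genes, and A06 held 0.

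The remaining measurements are those of G. barbadense after 5 DPA, which the rule did not use, and the differences among the later libraries. In G. barbadense 65 burst genes were higher in a later library than at 5 DPA on the rescaled level, and 23 were highest at 5 DPA. A later level of at least 2 times that at 5 DPA was counted for 47. This count includes Gh_A10G0388, Gh_A05G1241 and Gh_D05G3842, listed at 0 in every G. barbadense library, so fewer than 47 rose 2-fold. In RPKM as deposited 73 were higher later. The 2-fold count there was 64, which again includes the same genes listed at 0. A low value at 5 DPA was itself required by the rule, so these counts are a description. A later G. barbadense library held a value above 0 for 83 burst genes. Of these, 40 were highest among the later G. barbadense libraries at 15 DPA (48.2%, against 21.7% of all genes tested below). At 10 DPA 28 were highest (33.7%, against 53.7%) and at 20 DPA 15 (18.1%, against 24.5%). Unlike the genes tested below, these 83 were not filtered for a mean rescaled level of at least 1. In RPKM as deposited 30 were highest at 15 DPA (36.1%, against 13.7%) and 41 at 10 DPA (49.4%, against 69.0%). Scaled by median-of-ratios factors, 41 were highest at 15 DPA (49.4%, against 28.4%).

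A few burst genes reached in later G. barbadense fiber the level they had in G. hirsutum at 5 DPA. In RPKM as deposited 7 did so, and on the rescaled level 0 did, with 3 genes (Gh_A11G2616, Gh_D11G2930 and Gh_A13G1165) at 0.5 times or more. Gh_A11G2616 stood at 392, 53.9, 296 and 106 RPKM at 5, 10, 15 and 20 DPA in G. hirsutum fiber, against 82.6, 787, 969 and 25.7 RPKM in G. barbadense fiber. Gh_D11G2930, its pair, stood at 384, 58.9, 277 and 80.3 RPKM in G. hirsutum fiber, against 85.3, 852, 1026 and 16.8 RPKM in G. barbadense fiber. Both genes were thus higher in G. hirsutum at 5 and 20 DPA and higher in G. barbadense at 10 and 15 DPA, and both had a second high value in G. hirsutum at 15 DPA. The other 5 were Gh_A12G0512, Gh_A13G1165, Gh_D01G2168, Gh_D09G1042 and Gh_D11G0531, with highest later G. barbadense values of 26.8 to 61.9 RPKM.

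Gh_D03G0420, Gh_D03G0421 and Gh_A02G1280 shared a course in which the species changed order. They were chosen for display after their values were seen. Gh_D03G0420 stood at 61.2, 2.22, 2.92 and 5.09 RPKM in G. hirsutum fiber, against 4.42, 21.8, 19.5 and 2.63 RPKM in G. barbadense fiber. Gh_D03G0421 stood at 72.4, 5.39, 2.0 and 1.16 RPKM in G. hirsutum fiber, against 6.05, 15.8, 15.1 and 1.2 RPKM in G. barbadense fiber. Gh_A02G1280 stood at 54.5, 5.99, 4.61 and 3.44 RPKM in G. hirsutum fiber, against 5.32, 17.6, 16.2 and 1.18 RPKM in G. barbadense fiber. All 3 were lower in G. hirsutum at 10 and 15 DPA.

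**Figure D3:**
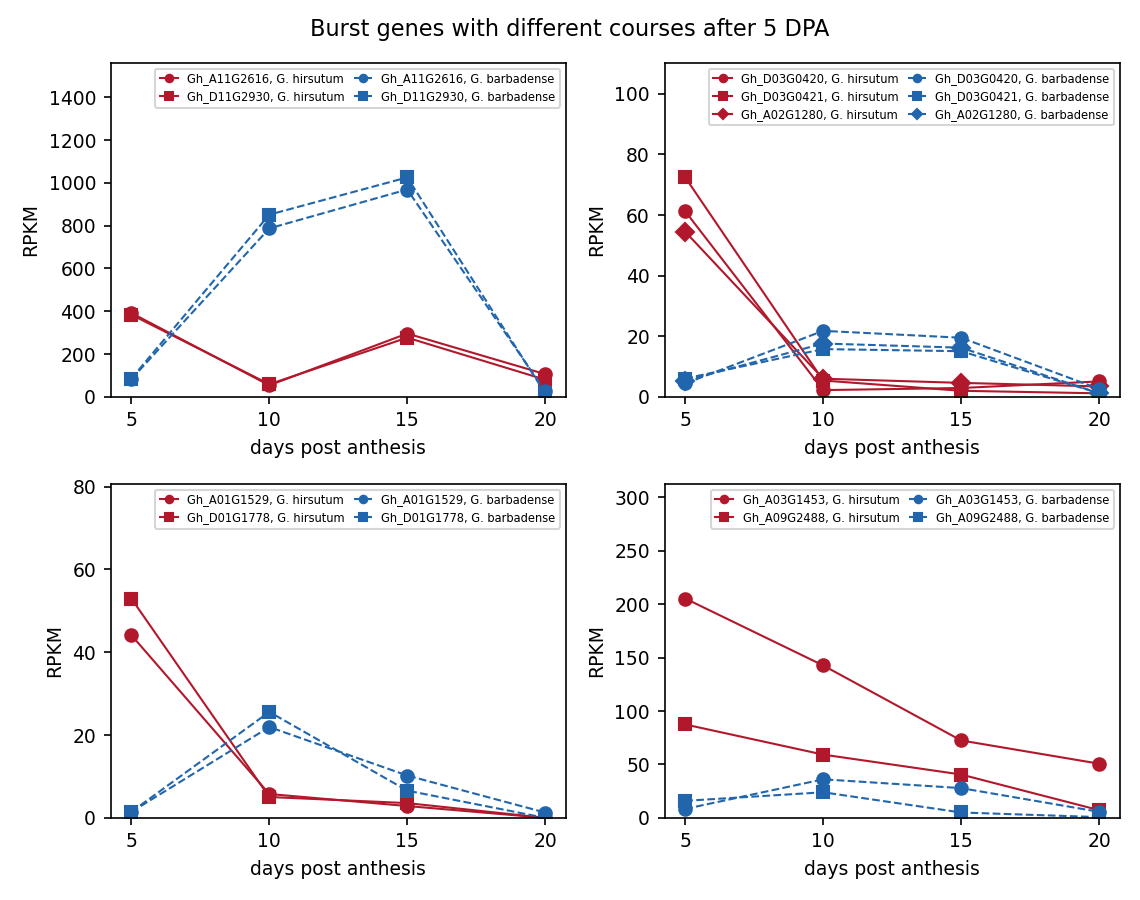
RPKM by days post anthesis of 9 burst genes in 4 panels, with G. hirsutum as red solid lines and G. barbadense as blue dashed lines, and 1 library per point. The upper panels and the lower left panel show genes that are lower in G. hirsutum at 10 DPA (Gh_A11G2616 at 53.9 RPKM, against 787 RPKM), and the lower right panel shows Gh_A03G1453 and Gh_A09G2488, which are higher in G. hirsutum at all 4 stages.

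At the other end, 7 burst genes were under 1 RPKM in every library after 5 DPA. Gh_A10G0388, Gh_A05G1241 and Gh_D05G3842 were listed at 0 in all 4 G. barbadense libraries and at 20.1, 21.6 and 20.7 RPKM in G. hirsutum at 5 DPA, with at most 0.45 RPKM at a later G. hirsutum stage. Gh_A11G3302 and Gh_D09G0141 stood at 28.5 and 28.0 RPKM in G. hirsutum at 5 DPA, against 2.37 and 1.23 RPKM in G. barbadense, and were listed at 0 in the 6 later libraries. Gh_A11G0685 and Gh_D08G2564 were the other 2, with 5 DPA values of 40.1 and 31.5 RPKM in G. hirsutum fiber, against 6.60 and 1.2 RPKM in G. barbadense fiber. With 1 library per group and no counts deposited, a listed 0 does not show that a gene was silent. The G. barbadense values are also listed under identifiers of the G. hirsutum form, and how well its reads match those genes was not tested.

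The highest of the 7 genes listed at 0 in G. barbadense at 5 DPA were Gh_A13G0593, Gh_D01G0536 and Gh_A01G0523. Gh_A13G0593 stood at 37.5, 0.72, 11.2 and 3.72 RPKM in G. hirsutum fiber, against 0, 1.64, 1.28 and 2.24 RPKM in G. barbadense fiber. Gh_A01G0523 stood at 32.8, 3.85, 0 and 2.21 RPKM in G. hirsutum fiber, against 0, 4.57, 0 and 2.28 RPKM in G. barbadense fiber. Gh_A01G0523 and its pair Gh_D01G0536 had nearly equal values in the species at each later stage at which they were above 0, except at 10 DPA, where Gh_D01G0536 stood at 0.64 RPKM in G. hirsutum, against 3.92 RPKM in G. barbadense.

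The fall after 5 DPA in G. hirsutum also varied. The highest later rescaled level was a median of 0.144 of that at 5 DPA, and 36 genes were at least 10-fold lower at every later stage. In 9 genes a later level was over 0.4 of that at 5 DPA. In 4 genes the deposited RPKM itself was higher at a later stage, as in Gh_A02G0603 with 47.5 RPKM at 5 DPA and 51.9 RPKM at 10 DPA, so their fall rests on the rescaling. The other 3 were Gh_D02G0660, Gh_D13G1602 and Gh_A09G2394. Gh_Sca013618G01 stood at 41.2, 8.56, 17.1 and 39.6 RPKM in G. hirsutum fiber, against 1.36, 10.1, 11.5 and 14.9 RPKM in G. barbadense fiber, where it was highest at 20 DPA.

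The species were next compared with both 5 DPA libraries left out. The 6 later libraries, 3 per species, were used, with the stages as replicates. Of the 91 burst genes 82 passed the filter of a mean rescaled level of at least 1 over these libraries, and 17861 genes were tested in all. No burst gene passed in either direction, by limma with species and stage in the model and a Benjamini-Hochberg adjusted p under 0.05. Over all genes tested 0.168% passed as higher and 0.084% as lower in G. hirsutum. At an unadjusted p under 0.05, 16 burst genes were higher in G. hirsutum (19.5%, against 8.03% of all genes tested) and 1, Gh_A01G1529, was lower (1.22%, against 9.27%). The count of 16 moved with single libraries. It was 6 without the 10 DPA library of G. barbadense (7.32%, against 4.39%) and 5 without that of G. hirsutum (6.1%, against 4.23%). It was 7 without the 15 DPA library of G. hirsutum (8.54%, against 4.94%) and 10 without that of G. barbadense (12.2%, against 5.57%). Without the 20 DPA library of G. barbadense 20 were higher (24.4%, against 9.9%) and 5 lower (6.1%, against 17.5%). Without that of G. hirsutum 20 were higher (24.4%, against 10.0%) and 5 lower (6.1%, against 17.5%). In RPKM as deposited 7 were higher (8.54%, against 3.6%) and 3 lower (3.66%, against 14.4%). With no stage term 3 were higher (3.66%, against 4.12%). The median difference, G. hirsutum minus G. barbadense on the log2(rescaled RPKM + 1) scale, was 0.51 for the burst genes and 0.00 for all genes tested. In RPKM as deposited these medians were 0.14 and -0.39. The rule also caps the later G. hirsutum levels at 0.5 times their 5 DPA level, so the comparison is not independent of how the genes were chosen. The counts here and at single stages below are therefore given as a description.

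By stage, 59 of the 82 burst genes tested were higher in G. hirsutum at 10 DPA (72.0%, against 45.1% of all genes tested) and 23 were lower (28.0%, against 54.2%). At 15 DPA 56 were higher (68.3%, against 52.2%) and 24 lower (29.3%, against 47.2%). At 20 DPA 53 were higher (64.6%, against 53.0%) and 26 lower (31.7%, against 38.4%). The median log2 difference over all 91 burst genes was 0.60 at 10 DPA, 0.46 at 15 DPA and 0.05 at 20 DPA, against -0.11, 0.08 and 0.03 over all genes tested, so at 20 DPA it was close to that of all genes. Of the 82 tested, 29 were higher in G. hirsutum at all 3 later stages (35.4%, against 21.5% of all genes tested) and 2 were lower at all 3 (2.44%, against 14.4%). The 29 included 7 of the 8 genes of the runs on A08 and D08. The 2 were Gh_A01G1529 and Gh_A03G1299.

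The genes with the largest species differences after 5 DPA did not pass the adjusted threshold. Gh_A03G1453 stood at 205, 143, 72.5 and 50.7 RPKM in G. hirsutum fiber, against 8.35, 36.1, 27.8 and 5.64 RPKM in G. barbadense fiber. Over the later stages it differed by 2.51 log2 units (SE 0.43, limma adjusted p = 0.0846). It did pass with a filter at a mean of 5 (limma adjusted p = 0.0373) and without the 15 DPA library of G. hirsutum (0.0124) or of G. barbadense (0.0020), but in none of the other 10 settings tried. Gh_A09G2488 stood at 87.4, 59.2, 40.6 and 7.20 RPKM in G. hirsutum fiber, against 15.9, 23.9, 5.01 and 0.68 RPKM in G. barbadense fiber (difference 2.50, SE 0.47, limma adjusted p = 0.114). In the other direction the largest were Gh_A01G1529 (-1.11, SE 0.42) and Gh_D03G0420 (-1.08, SE 0.63).

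**Figure D4:**
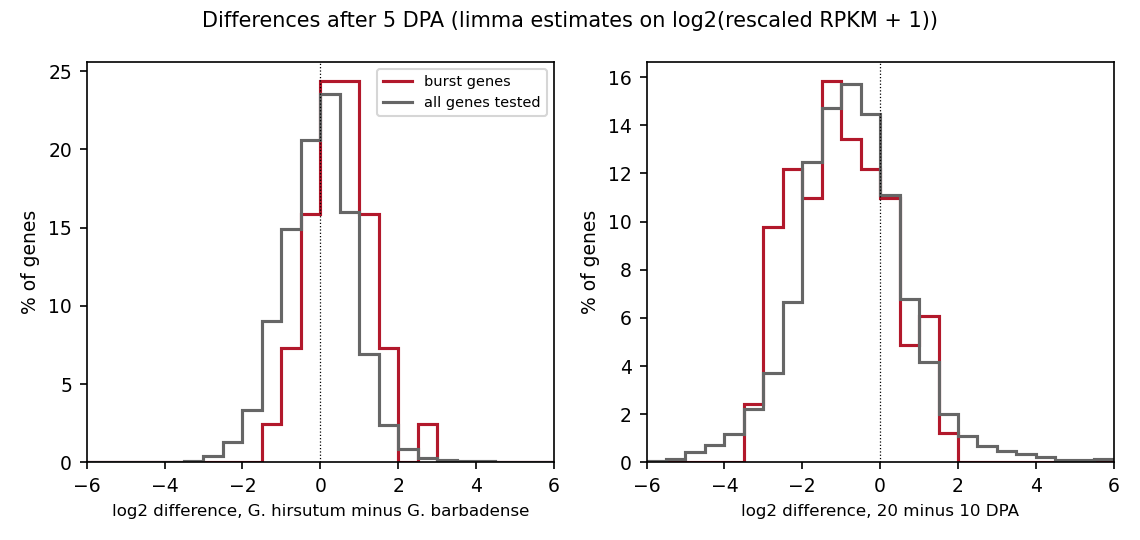
Share of genes by log2 difference in the 6 libraries of 10, 15 and 20 DPA, in bins of 0.5, for the 82 burst genes tested (red) and all 17861 genes tested (grey). The left panel gives G. hirsutum minus G. barbadense, with medians of 0.51 and 0.00, and the right panel 20 minus 10 DPA, with medians of -1.12 and -0.76.

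At single stages some burst genes were 4-fold apart on the log2(rescaled RPKM + 1) scale, among those at a rescaled level of 5 or more in either species. At 10 DPA 8 of 65 were 4-fold higher in G. hirsutum, against 5.56% of all genes at that level, and 3 were 4-fold lower, against 10.9%. The 3 were Gh_A11G2616, Gh_D11G2930 and Gh_D03G0420. At 15 DPA 11 of 69 were 4-fold higher, against 11.2%, and 0 were 4-fold lower, against 18.2%. At 20 DPA 7 of 42 were 4-fold higher, against 6.66%, and 0 were 4-fold lower, against 1.95%. Gh_D08G0811 was 4-fold higher in G. hirsutum at both 10 and 15 DPA, with 63.0 and 65.5 RPKM, against 8.14 and 14.6 RPKM in G. barbadense.

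Between 10 and 20 DPA, in the same fit over both species, 15 of the 82 burst genes tested fell (limma adjusted p under 0.05; 18.3%), against 11.5% of all genes tested. The G. hirsutum libraries in this fit are the later ones that the rule holds below their 5 DPA level, so the count is not independent of how the genes were chosen and is given as a description. No burst gene rose, against 3.11% of all genes tested, and 3 were higher at 20 DPA at an unadjusted p under 0.05 (Gh_Sca013618G01, Gh_D06G1392 and Gh_D06G0673; 3.66%, against 6.49%). The median change was -1.12 for the burst genes and -0.76 for all genes tested. The count followed the scaling. In RPKM as deposited 28 fell (34.1%, against 16.5% of all genes tested). Under median-of-ratios scaling 5 fell (6.1%, against 2.23%). After quantile normalization 3 fell (3.66%, against 3.38%), a share close to that of all genes, and 1 rose (1.22%, against 4.39%). It also followed single libraries. None fell without the 10 DPA library of G. barbadense (0%, against 0.0504%) or of G. hirsutum (0%, against 0.0616%). Nor did any fall without the 20 DPA library of G. barbadense (0%, against 0%). Without the 20 DPA library of G. hirsutum 8 fell (9.76%, against 11.1%). Without the 15 DPA library of G. hirsutum 27 fell (32.9%, against 22.5%). Without that of G. barbadense 30 fell (36.6%, against 22.3%) and 1 rose (1.22%, against 5.09%). The median change of all genes tested was -1.11 in RPKM as deposited, -0.23 once scaled by median-of-ratios factors, and 0.00 with quantiles made equal.

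The largest falls from 10 to 20 DPA were those of Gh_D01G1778, Gh_A12G0512 and Gh_A09G2488. Gh_D01G1778 stood at 53.0, 5.03, 3.56 and 0 RPKM in G. hirsutum fiber, against 1.44, 25.6, 6.57 and 0 RPKM in G. barbadense fiber (log2 change from 10 to 20 DPA -3.26, SE 0.59, limma adjusted p = 0.0159). Gh_A12G0512 stood at 43.1, 20.0, 11.7 and 1.77 RPKM in G. hirsutum fiber, against 2.56, 51.7, 22.4 and 1.83 RPKM in G. barbadense fiber (-3.18, SE 0.54, limma adjusted p = 0.0135). Gh_A09G2488 changed by -2.99 (SE 0.58, limma adjusted p = 0.0191). Of the genes in the runs on A08 and D08, 5 were among the 15, with changes of -1.90 (Gh_A08G0316) to -2.94 (Gh_A08G0314). The largest increases, which did not pass, were those of Gh_Sca013618G01 and Gh_D06G1392.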

How the data were processed

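Total RNA from fibers was sequenced as 8 Illumina libraries, and the authors deposited RPKM values for 59006 genes. Per the submitters' processing notes the tools were cutadapt, Bowtie2 and edgeR; their versions, the genome build and the annotation were not given in the sources used here. Both the burst genes and the lists were chosen with earlier results of these data known. Genes were named by fixed ranks of level and of difference, by closeness to the rule's edges, and by pairing and adjacency. The partners of Gh_D03G0420, the remaining genes that regained their 5 DPA level, the genes near 0 after 5 DPA and the flanking genes were chosen after their values were seen.

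Values rescaled to a sum of 300000 were tested as log2(value + 1), which understates the change of low genes, in the 6 libraries after 5 DPA. The test was limma 3.58.1 in R 4.3.3 (lmFit, eBayes with trend), two-sided, with species and stage as factors and 2 residual degrees of freedom, on 17861 genes whose mean was 1 or more. Its p-values reflect the spread between libraries, which may be technical. Paired genes lay within 0.05 of each other in relative gene number. Scripts (Python 3.11.15, pandas 2.3.3, numpy 2.4.6) were tested on simulated data. Other settings changed the pseudocount (0.1), the filter (none, or a mean of 5), the scaling, the libraries, the model terms and the rule's thresholds.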

Additional observations from a re-analysis of the deposited data

How the results depend on the processing

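The rule chose 44 genes in RPKM as deposited, 58 at 16-fold between the species, 188 at 10 RPKM and 41 at 40 RPKM. Without the 10 highest genes, the shares of summed RPKM at 5, 10, 15 and 20 DPA were 2.40%, 0.316%, 0.324% and 0.146% in G. hirsutum, and 0.133%, 0.193% and 0.198% at the first 3 stages in G. barbadense. With positions within 0.02 in place of 0.05, 10 burst genes were in a pair, against 36.

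For the species difference after 5 DPA, 1 burst gene passed with a mean of at least 5, and 0 to 1 with 1 library left out. Over all genes tested 45 passed, 8 with a pseudocount of 0.1, 0 with no filter, 0 with median-of-ratios factors, 0 with no stage term (no replicate block), and 0 to 257 with 1 library left out. For 20 minus 10 DPA, the 15 burst genes became 0 with no filter, 28 in RPKM as deposited, 5 with median-of-ratios factors, 4 after quantile normalization, 1 with no species term (no replicate block) and 0 to 31 with 1 library left out. Over all genes tested 2614 passed, 0 with no filter, 1645 with a mean of at least 5, 952 with median-of-ratios factors, 1388 after quantile normalization, 323 with no species term and 0 to 4888 with 1 library left out. The cause was not tested.

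For G. hirsutum minus G. barbadense with RPKM as deposited, the log2 difference turned sign to -0.077 in Gh_A01G0523 and -0.29 in Gh_D06G1392. For G. hirsutum minus G. barbadense with median-of-ratios factors, the log2 difference turned sign to -0.015 in Gh_D06G1392. With 1 library left out, G. hirsutum minus G. barbadense ranged from -0.20 to 0.22 in Gh_A09G2043, -2.17 to 0.50 in Gh_A11G2616, -0.54 to 0.026 in Gh_D01G0536 and -2.25 to 0.50 in Gh_D11G2930, with both signs in each. For 20 minus 10 DPA with median-of-ratios factors, the log2 difference turned sign to 0.15 in Gh_A01G0523, 0.075 in Gh_D03G0420 and 0.36 in Gh_D08G0811. For 20 minus 10 DPA with quantile normalization, the log2 difference turned sign to 0.45 in Gh_A01G0523, 0.20 in Gh_D03G0420 and 0.27 in Gh_D08G0811. With 1 library left out, 20 minus 10 DPA ranged from -3.72 to 0.57 in Gh_A11G2616, -0.088 to 1.01 in Gh_D01G0536, -1.94 to 0.93 in Gh_D03G0420, -2.49 to 1.86 in Gh_D08G0811 and -4.47 to 0.093 in Gh_D11G2930, with both signs in each. None of the genes whose sign turned with the scaling passed the test in either direction. No replicates exist within a species and stage: stages served as replicates of the species comparison and species as replicates of the age comparison, so a difference that changes with stage enters the error. The stage term compares the species within each stage, and the species term compares the stages within each species. Taking out the stage term for the species comparison, or the species term for the age comparison, gave the lower counts above.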
